A study of Mus musculus with 4 samples.

Results

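ND1, ND2, ND4, ND5, ND6, COX1 and CYTB are genes that mouse mitochondrial DNA carries for subunits of the respiratory chain, and their transcripts are described here. These 7 were taken from the 13 protein-coding genes on chromosome M in the count tables, which hold 37 rows of that chromosome among 49997 genes in all. They were chosen by how many reads they hold, so their high counts are a description and support nothing. The lowest of them, ND6, held 13049 to 36023 reads per library, whereas the other 6 protein-coding genes held 20 to 1086, with COX3 and COX2 just outside the choice at 433 to 1086 and 772 to 871 reads. The RNA came from cultured pieces of the embryo's aorta-gonad-mesonephros (AGM), where the first haematopoietic stem cells of the embryo arise. AGM explants of C57BL/6J embryos, E10.5 and E11.5 per the growth protocol (the design text names E10.5 alone), were cultured for 48 hours at the gas-liquid interface in MyeloCult medium with hydrocortisone. Of the 4 libraries, 2 came from untreated explants and 2 from explants kept for 48 hours with 5 µM CCCP, which carries protons across the inner mitochondrial membrane and so uncouples respiration from ATP synthesis. The comparison addresses the role of mitochondrial activity in the maturation of embryonic haematopoietic stem cells.

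Mammalian mitochondrial DNA is a small circle in which both strands are transcribed into long RNAs that run through many genes. These are cut apart mostly at the tRNAs that stand between the genes, and most of the mRNAs then receive short poly(A) tails. The RNA from the heavy-strand promoter region starts with the 2 rRNAs and goes on to ND1, ND2, COX1, ND4, ND5 and CYTB, while ND6 is the sole protein-coding gene read from the other strand. ND1, ND2, ND4, ND5 and ND6 are subunits of the membrane arm of complex I (NADH dehydrogenase), CYTB is the cytochrome b of complex III, and COX1 is the catalytic subunit of complex IV (cytochrome c oxidase).

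The ends of the 7 genes are shown because the libraries were made from poly(A) RNA and the tail completes the stop codon of some mitochondrial mRNAs. The sequences are those of GENCODE M21 on GRCm38 (mm10), whose chromosome M gene positions and lengths were identical to those in the deposited tables. Each line gives the last 30 bases of the annotated gene, 5′ to 3′ on its own coding strand, with the annotated stop bases in capitals.
ND1: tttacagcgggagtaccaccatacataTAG
ND2: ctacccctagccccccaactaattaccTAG
COX1: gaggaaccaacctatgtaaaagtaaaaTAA
ND4: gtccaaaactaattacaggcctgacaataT
ND5: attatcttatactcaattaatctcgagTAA
ND6: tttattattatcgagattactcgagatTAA
CYTB: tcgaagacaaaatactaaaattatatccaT
ND4 and CYTB, with lengths of 1378 and 1144 bases, end in a lone T, to which added A bases give a full stop codon, whereas the other 5 end in a complete one. The genes span chrM:2751-3707 (ND1), chrM:3914-4951 (ND2), chrM:5328-6872 (COX1), chrM:10167-11544 (ND4), chrM:11742-13565 (ND5), chrM:13552-14070 (ND6) and chrM:14145-15288 (CYTB), each a single exon. The intervals printed are chrM:3678-3707, chrM:4922-4951, chrM:6843-6872, chrM:11515-11544, chrM:13536-13565 and chrM:15259-15288 on the plus strand, and chrM:13552-13581 on the minus strand for ND6.

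ND6 differs from the others in base composition as well as in strand. The first 30 bases of ND6 (chrM:14041-14070, minus strand) and of CYTB (chrM:14145-14174, plus strand), its neighbour, are printed with the start codon in capitals.
ND6: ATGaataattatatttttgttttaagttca
CYTB: ATGacaaacatacgaaaaacacacccatta
G made up 28.1% and C 5.97% of the ND6 coding strand. In the 6 heavy-strand genes G was at most 16.1% (COX1) and C ran from 23.8% to 27.7%.

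ND5 and ND6 run towards each other and share 14 bases, chrM:13552-13565. The last 45 bases of each gene are given with the shared bases in capitals, which are the reverse complement of each other.
ND5: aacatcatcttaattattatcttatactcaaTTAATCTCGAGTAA
ND6: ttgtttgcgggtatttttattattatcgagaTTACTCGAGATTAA
Reads over the shared bases were counted for neither gene, since reads touching 2 genes were left out. The counting did not use strand, so a read on the ND6 interval was counted as ND6 whichever strand it came from, and light-strand ND6 mRNA and heavy-strand RNA across the same interval cannot be told apart. The other overlaps of the 7 genes with annotated genes are 7 bases between ND4 and ND4L, 3 between COX1 and TrnS1, 2 between ND2 and TrnW and 2 between ND1 and TrnI.

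Of the 7 genes, 4 share sequence with nuclear copies of mitochondrial DNA, and reads that fit 2 places equally were not counted. Each stretch of 50 bases was looked up in all other GENCODE M21 transcripts on both strands. ND1, ND6 and CYTB shared no stretch with them. ND5 shared 7.61% and ND2 8.19%, while COX1 shared 51.1% and ND4 62.2%. All shared stretches of ND4 lie in its first 876 bases and occur in Gm28439, an unprocessed pseudogene at chr1:24611535-24612410. COX1 shared most with Gm29216, at chr1:24615706-24616197. The same pseudogene cluster holds copies of COX2, ATP6, COX3 and ND4L, which shared 98.8% to 100% of their stretches, and of ND3, which shared 293 of 299. ATP8 shared none with an annotated transcript and yet held only 41 to 77 reads, so the lookup, which covers annotated transcripts and not the whole nuclear genome, does not account for every low count.

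**Figure D1:**
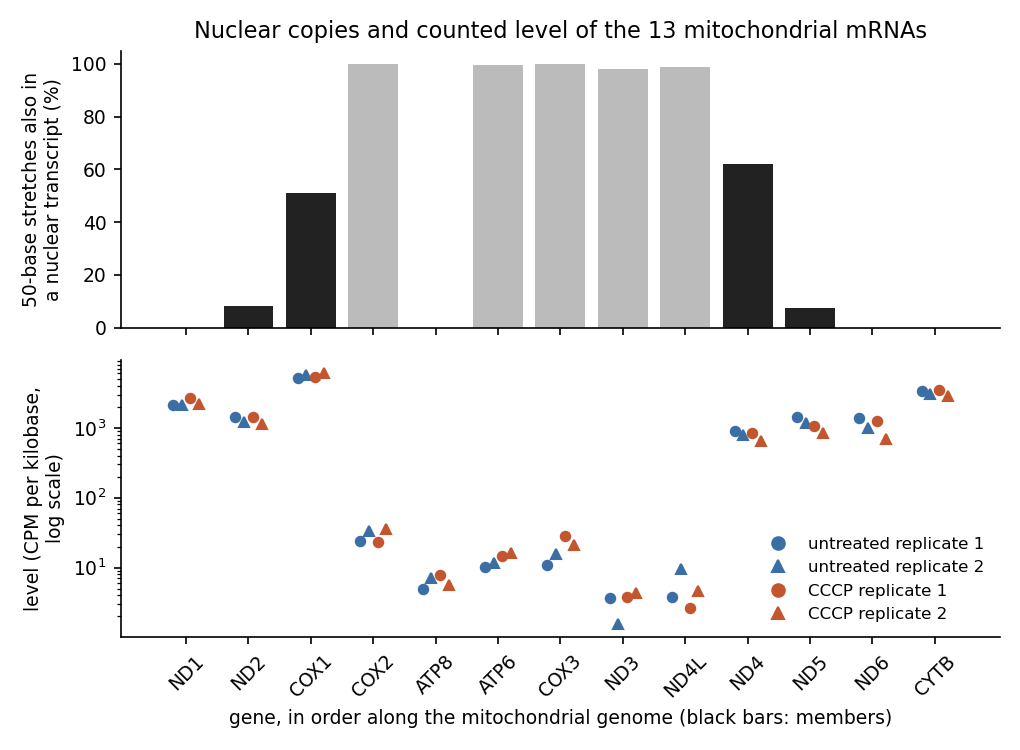
The upper bars give, for the 13 mitochondrial protein-coding genes in genome order, the share of 50-base stretches that also occur in another annotated transcript (black bars, the 7 well counted genes; ND1, ATP8, ND6 and CYTB are at 0), and the lower points give the level in each library on a log scale, in CPM (counts scaled to a common library size with edgeR's TMM factors) per kilobase of exon. The 6 genes from COX2 to ND4L lie far below the 7 others, and COX1 and ND4 are well counted although they share 51.1% and 62.2%.

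Counted reads came to 48216849 and 37360968 for untreated replicates 1 and 2 and to 48827826 and 37579087 for the CCCP replicates, so replicate 1 was the deeper library in each group. The 7 genes took 2.09% and 1.93% of the reads without CCCP and 1.99% and 1.82% with it, and 84.5% to 91.3% of all reads on chromosome M. The labels name embryonic haematopoietic stem cells and the design text c-kit+ ones, whereas RNA is said to have been extracted from AGM explants. Of the 12 haemato-endothelial markers looked at, Gfi1 held fewest reads, 4 to 12 per library, and Cdh5 most, 4871 to 6921. Kit held 1876 to 2566 reads, and the list summed to 390 to 498 CPM. Neural markers summed to 686 to 855 CPM, erythroid markers to 2319 to 4596 CPM and muscle markers to 427 to 636 CPM, so the libraries hold RNA of many cell types. The hepatic list, whose 11 genes include Alb and Afp, summed to 1780 and 1011 CPM without CCCP and to 53.2 and 109 CPM with it. In bulk RNA, fewer cells of a type and less RNA per cell cannot be told apart, and the part of cell composition in the results below was not tested. No label says whether the libraries of a group came from separate litters or embryos, so p-values measure the spread between these libraries, which may be technical.

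Among the 7 genes the level per kilobase of exon spanned a 7.09-fold range in the mean over the 4 libraries. COX1 was highest, at 5237 and 5636 CPM per kilobase without CCCP and 5393 and 6186 with it. CYTB followed with 3414 and 3078 untreated and 3445 and 2840 CCCP, and ND1 with 2157 and 2094 untreated and 2633 and 2212 CCCP. These 3 genes held the same order in all 4 libraries, and their ranges did not overlap. ND2 had 1436 and 1210 CPM per kilobase without CCCP and 1421 and 1119 with it. ND5 had 1410 and 1182 untreated and 1054 and 836 CCCP, and ND6 had 1386 and 979 untreated and 1253 and 693 CCCP. The ranges of ND2, ND5 and ND6 overlapped across libraries. Within a library ND2 lay above ND5 in 4 of 4 and ND5 above ND6 in 3 of 4.

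ND4 was lowest, at 913 and 778 CPM per kilobase without CCCP and 834 and 642 with it. Its place depends on the length used. Per kilobase of 50-base stretches not shared with another transcript, a scale chosen after seeing the data, the mean of ND4 was 2173 CPM in place of 792, and it stood 4th of 7, behind COX1 (11864), CYTB (3337) and ND1 (2397) and ahead of ND2 (1482), ND5 (1246) and ND6 (1190). COX1 stayed highest on both scales. The read length is not given in the sources used here, so neither scale is exact for COX1 and ND4. The levels of all 7 genes also lack the reads that touch a neighbouring gene, an effect that was not tested.

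**Figure D2:**
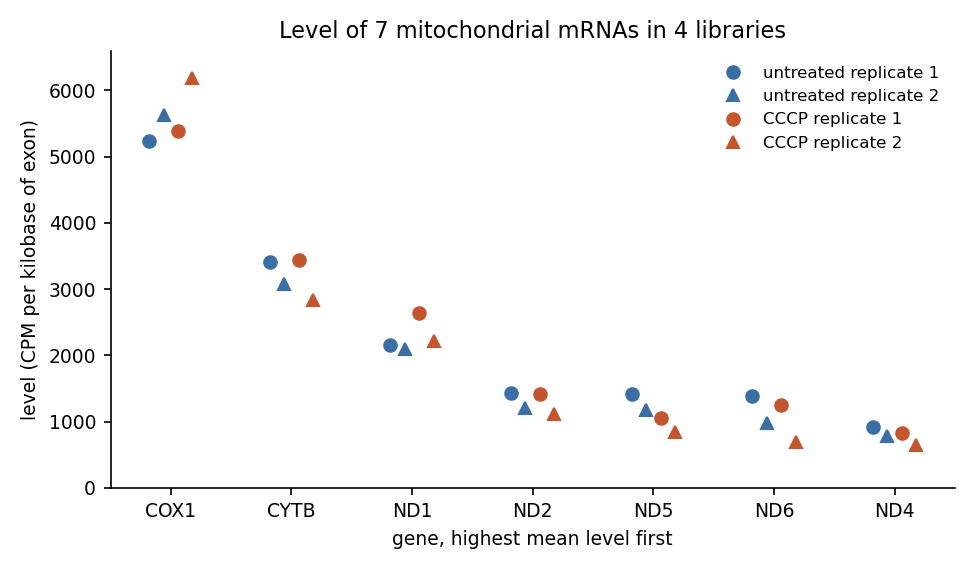
Each point is a library (circles replicate 1, triangles replicate 2; blue untreated, orange CCCP), and the vertical axis gives the level in CPM per kilobase of exon from 0 for the 7 genes, highest mean first. COX1, CYTB and ND1 occupy separate ranges, ND2, ND5 and ND6 share theirs, and replicate 2 lies below replicate 1 in both groups for every gene but COX1.

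The replicates of a group differed by gene in a repeated way. In the untreated group 6 of 7 genes, and in the CCCP group 6 of 7 genes, were higher in replicate 1, with COX1 as the exception in both. The log2 difference between replicate 1 and replicate 2 ran from -0.11 (COX1) to 0.50 (ND6) in the untreated group and from -0.20 (COX1) to 0.86 (ND6) in the CCCP group. ND6 was thus the least repeatable of the 7 in both groups. The share of COX1 among the reads of the 7 genes was 40.3% and 45.3% without CCCP and 41.7% and 50.7% with it.

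None of the 7 genes passed edgeR's test of CCCP against untreated libraries. With Benjamini-Hochberg adjustment over 19837 genes and a threshold of 0.05, the quasi-likelihood test called 0 of 7, against 0% of all genes. At an unadjusted p under 0.05 it had 0 of 7, against 14.6% of all genes (5.45% higher and 9.16% lower in CCCP). DESeq2 also called 0 of 7, where it called 2.99% of all genes, and edgeR without a filter on low counts called 0 of 7 and 3.43% of all genes. With the replicate number as a block edgeR called 1 of 7, ND5, beside 10.7% of all genes, and with the length trend described next removed as well it called 3 of 7, ND4, ND5 and ND6, all lower, beside 7.32%. No label says what the replicate number marks. The 7 genes together held 20102 and 19227 CPM without CCCP and 19991 and 18854 CPM with it, so their summed level overlapped between groups. Their median log2 fold change was -0.059, beside -0.0077 over all genes tested. Across the whole table log2 fold changes were lower for genes with longer exons (a median of 0.22 for the 10% with the shortest exons against -0.35 for the 10% with the longest), and 4691 nuclear genes with exons of 500 to 2000 bases, a range that holds the 7 genes, had a median of 0.20. With the trend of each library with exon length removed, the median of the 7 was -0.25.

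ND5, a proton-pumping subunit of complex I, had the log2 fold change farthest from 0. It had 2572 and 2157 CPM without CCCP and 1923 and 1524 CPM with it, so both CCCP libraries lay below both untreated ones, as they did for 24.8% of all genes (48.8% of all genes had groups that did not overlap in either direction, as did 2 of the 7). The means were 2365 ± 294 and 1724 ± 282 CPM (SD, n = 2 in each group), for which the log2 fold change was -0.46 (SE 0.19, adjusted p-value 0.346 in edgeR). Leaving out any of the 4 libraries gave values between -0.63 and -0.29.

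ND1, the subunit at the quinone-binding site of complex I, was the other gene whose groups did not overlap. It had 2065 and 2004 CPM without CCCP and 2520 and 2117 CPM with it, the latter both higher, as for 24.0% of all genes. Its log2 fold change was 0.19 (SE 0.17, adjusted p-value 0.616 in edgeR), and it was -0.0068 with the length trend removed.

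The groups of the other 5 genes overlapped. ND2, a subunit of the proton-pumping part of complex I, had 1491 and 1256 CPM without CCCP and 1475 and 1162 CPM with it, a log2 fold change of -0.059. ND4, another antiporter-like subunit, had 1258 and 1072 CPM untreated and 1149 and 885 CPM with CCCP, a log2 fold change of -0.20. COX1 had 8091 and 8708 CPM untreated and 8333 and 9557 CPM with CCCP, a log2 fold change of 0.091. The CCCP libraries thus held the highest and the second lowest COX1 value. CYTB had 3906 and 3521 CPM untreated and 3941 and 3249 CPM with CCCP, a log2 fold change of -0.047. ND6 had 719 and 508 CPM untreated and 650 and 359 CPM with CCCP, or -0.28 in log2 fold change with SE 0.31, the largest of the 7. The edgeR adjusted p-values of these 5 genes lay between 0.639 and 0.926. ND2, CYTB and ND6 had values above 0 without untreated replicate 1 (0.081, 0.040 and 0.0029) and without CCCP replicate 2 (0.11, 0.096 and 0.094), and without CCCP replicate 1 ND6 was at -0.77.

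Read in the order of the genome, the log2 fold changes of all 15 mRNA and rRNA genes showed no single direction. mt-Rnr1, the small rRNA, had 605 and 496 CPM without CCCP and 1176 and 730 CPM with it, for which the log2 fold change was 0.79 (SE 0.25, adjusted p-value 0.272 in edgeR). mt-Rnr2, the large rRNA, had 1578 and 1277 CPM untreated and 2425 and 1514 CPM with CCCP, or 0.46 in log2 fold change (adjusted p-value 0.444 in edgeR). ND1 (0.19), ND2 (-0.059) and COX1 (0.091) follow. The 6 genes with few reads come next and were spread widely, COX2 at 0.031, ATP8 at 0.15, ATP6 at 0.48, COX3 at 0.89, ND3 at 0.61 and ND4L at -0.88. ND4 (-0.20) and ND5 (-0.46) stand after them, and CYTB (-0.047), the last heavy-strand gene, was near 0. None of these genes was called by edgeR, and rRNA is not the target of a poly(A) selection, whose carry-over in each library was not tested.

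**Figure D3:**
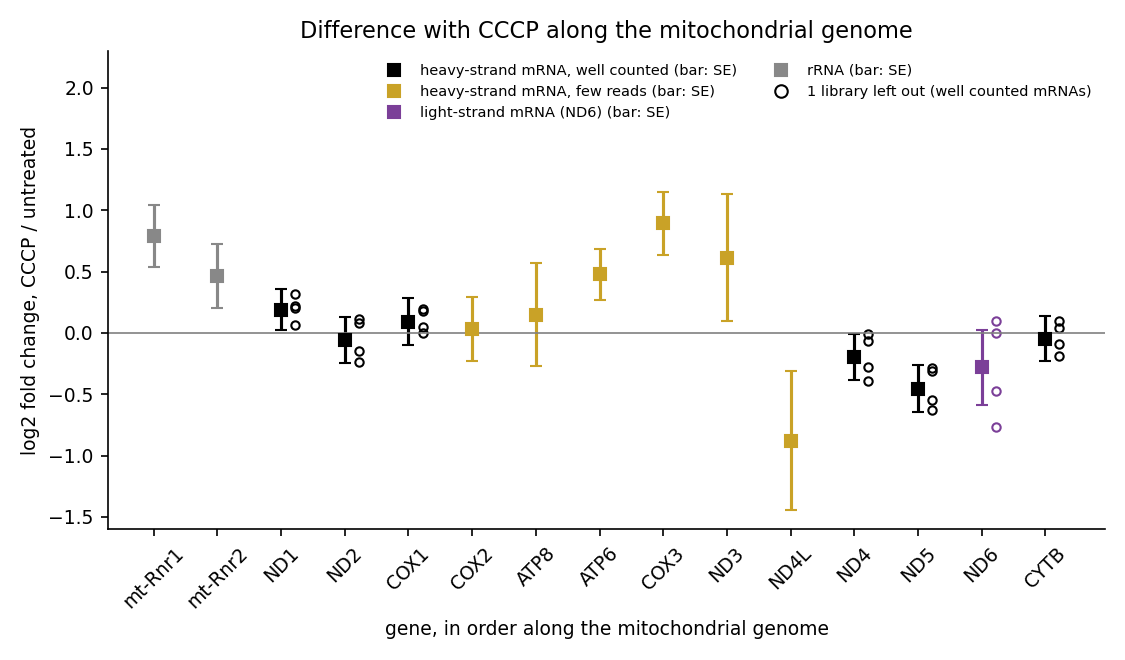
Squares give the log2 fold change of CCCP over untreated from edgeR with its standard error, for the rRNA genes (grey), the 6 well counted heavy-strand mRNAs (black), the 6 mRNAs with few reads (yellow) and ND6 (purple) in genome order, and open circles give the values of the 7 well counted mRNAs with 1 of the 4 libraries left out. The squares range from 0.89 at COX3 to -0.88 at ND4L, those of the 7 genes from 0.19 at ND1 to -0.46 at ND5, and the circles of ND5 all lie below 0 while those of ND6 spread from -0.77 to 0.094.

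Within a library the ratio of 2 mitochondrial genes does not depend on library scaling. It shows unequal change and not which gene moved. Of the 21 pairs among the 7 genes, 10 (47.6%) had ratios that did not overlap between groups, beside 44.1% of all pairs of tested genes. By gene, 5 of 6 pairs with ND5, 4 of 6 with ND1, 4 of 6 with ND4, 3 of 6 with ND2, 3 of 6 with CYTB, 1 of 6 with COX1 and 0 of 6 with ND6 were among them. These pairs share genes and libraries and are given as a description.

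ND5 was lower against each of the other 5 heavy-strand genes in both CCCP libraries. Against ND2 there were 173 and 172 reads of ND5 per 100 reads of ND2 without CCCP and 130 and 131 with it. The log2 ratio was 0.79 and 0.78 untreated and 0.38 and 0.39 with CCCP, a difference of -0.40 where replicates lay within 0.01 of each other. Against ND1 there were 125 and 108 reads of ND5 per 100 reads untreated and 76.3 and 72.0 with CCCP, so the order of these 2 genes by read count was reversed between the groups. Against CYTB there were 65.9 and 61.3 reads untreated and 48.8 and 46.9 with CCCP, and against ND4 204 and 201 untreated and 167 and 172 with CCCP. Against COX1 the values were 31.8 and 24.8 untreated and 23.1 and 16.0 with CCCP, with groups that did not overlap but nearly met. Against ND6, which shares its 3′ end, the groups overlapped, with 358 and 424 untreated and 296 and 424 with CCCP.

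ND6, the light-strand gene, was then set against the 6 heavy-strand genes. For every 100 reads of these 6 genes there were 3.71 and 2.71 reads of ND6 without CCCP and 3.36 and 1.94 with it. The mean log2 ratio was -4.98 ± 0.32 untreated and -5.29 ± 0.56 with CCCP (SD, n = 2 in each group), a difference of -0.31. The groups overlapped, and an exact two-sided permutation test over the 4 libraries gave p = 0.667, where the smallest p that 2 against 2 libraries allow is 0.333. The gap between replicates, 0.45 untreated and 0.79 with CCCP, was larger than the difference between groups. A difference between the ND6 count and the heavy-strand ones by treatment was not detectable with these 4 libraries. Since the counting did not use strand, the ND6 count can also hold heavy-strand RNA over its interval. It is therefore not a measure of the light-strand transcript alone. The libraries were made from poly(A) RNA, and how far that selection kept the ND6 transcript was not tested.

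Set against single genes, the ND6 ratio was lower in CCCP for 5 of the 6 heavy-strand genes, with log2 differences of -0.51 (ND1), -0.41 (COX1), -0.27 (CYTB), -0.26 (ND2) and -0.12 (ND4), and the groups overlapped in each. The exception was ND5, which was itself lower against the other 5. Against ND5 alone there were 28.0 and 23.6 reads of ND6 per 100 without CCCP and 33.8 and 23.6 with it, a log2 difference of 0.14. Against CYTB alone the values were 18.4 and 14.4 untreated and 16.5 and 11.1 with CCCP. Leaving out CCCP replicate 2 turned the difference against all 6 genes to 0.084, while leaving out CCCP replicate 1 gave -0.71, untreated replicate 1 -0.087 and untreated replicate 2 -0.54, so CCCP replicate 2 decided its sign. Every ratio of ND6 to another gene was higher in replicate 1 than in replicate 2 in both groups.

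**Figure D4:**
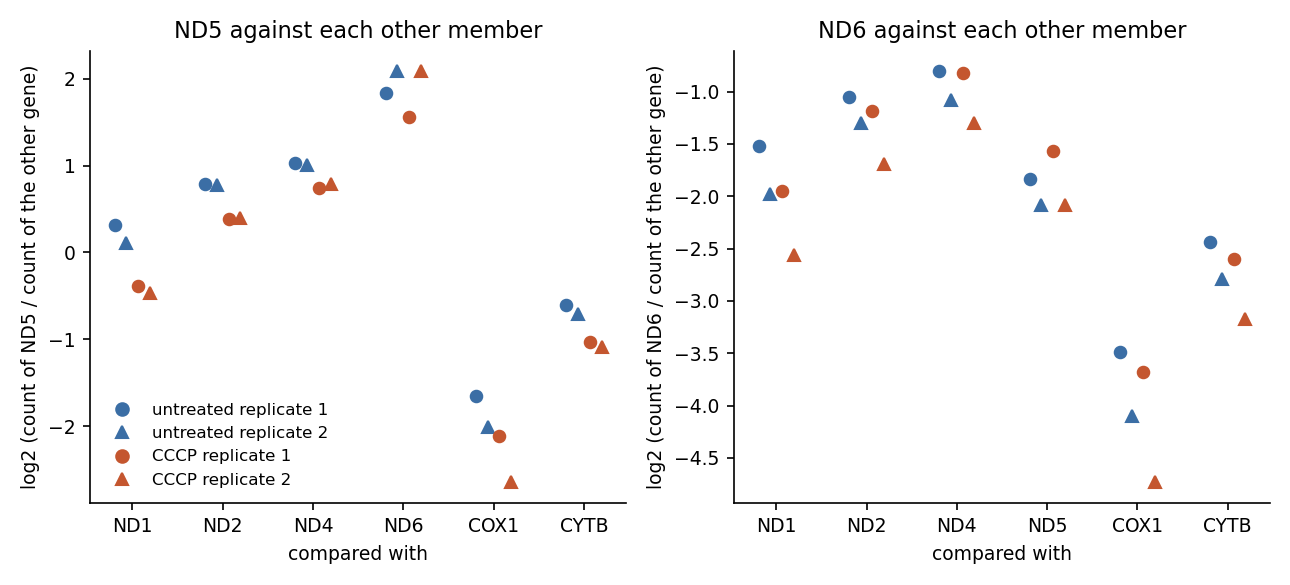
The left panel gives the log2 ratio of ND5 counts to the counts of each other gene and the right panel the same for ND6, per library (circles replicate 1, triangles replicate 2; blue untreated, orange CCCP). On the left both orange points lie below both blue points for every gene but ND6, and on the right the colours overlap for every gene while the circles lie above the triangles.

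The nuclear genes of the machinery that makes and handles mitochondrial RNA were read from 3 lists, and edgeR called none of them. With the replicate number as a block, where 10.7% of all genes were called, it called 1, Pnpt1, lower (adjusted p-value 0.0462). With the length trend removed as well, where 7.32% were called, edgeR again called Pnpt1 alone, lower (adjusted p-value 0.0279). Of the 10 genes of mitochondrial transcription, 4 had values above 0 and 6 below, with a median log2 fold change of -0.11. Polrmt, the mitochondrial RNA polymerase, had 38.9 and 39.3 CPM without CCCP and 44.4 and 41.7 CPM with it, a log2 fold change of 0.14. Mterf2, of the mitochondrial transcription termination factor family, had 15.7 ± 1.02 CPM untreated and 11.8 ± 0.073 CPM with CCCP (SD, n = 2), a log2 fold change of -0.41. Mterf3, of the same family, had 27.9 and 25.9 CPM untreated and 22.5 and 23.8 CPM with CCCP, a log2 fold change of -0.22. Mterf1b stood at -0.91 on 1.38 to 2.78 CPM, and has a close copy, Mterf1a, with which it can share reads. In 5 of the 10 genes both CCCP libraries lay below both untreated ones, beside 24.8% of all genes. Leaving out 1 library gave medians of the list from -0.21 (untreated replicate 1) to 0.077 (untreated replicate 2).

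Of the 18 genes of RNA maturation and decay, 12 had log2 fold changes above 0 and 6 below, with a median of 0.059, which leaving out 1 library moved to -0.00044 (untreated replicate 1), 0.20 (untreated replicate 2), 0.14 (CCCP replicate 1) or 0.0080 (CCCP replicate 2). Pnpt1, a polynucleotide phosphorylase of the mitochondrial RNA degradation complex, had 40.9 and 50.9 CPM untreated and 31.8 and 37.9 CPM with CCCP, a log2 fold change of -0.40. Trmt10c, a subunit of mitochondrial RNase P, had 29.9 and 31.8 CPM untreated and 25.3 and 26.3 CPM with CCCP. Hsd17b10, another subunit of that enzyme, went the other way, with 49.2 and 64.2 CPM untreated and 69.1 and 75.5 CPM with CCCP. Elac2, which cuts the 3′ ends of mitochondrial tRNAs, stood at 0.23 and Rexo2, an oligoribonuclease, at 0.32. Of the 6 genes of mitochondrial DNA replication, 5 had values above 0 and 1 below, Ssbp1 at -0.25, and their median of 0.079 ran from 0.043 (without CCCP replicate 1) to 0.21 (without untreated replicate 2). The edgeR adjusted p-values of all 34 genes of the 3 lists were 0.303 or above.

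The nuclear partners of the 7 gene products mostly had log2 fold changes above 0, as had 49.2% of all genes, and edgeR called none of them. With the replicate number as a block, where 10.7% of all genes were called, it called 14 of 36 for complex I, 2 of 9 for complex III and 4 of 11 for complex IV, all higher. With the length trend removed as well these counts were 2, 1 and 0, where 7.32% of all genes were called. Without the filter on low counts and without the block they were 1, 1 and 0, where 3.43% were called. Of 36 nuclear complex I subunits, 35 had a log2 fold change above 0, and in 30 both CCCP libraries lay above both untreated ones, beside 24.0% of all genes. No such share was computed for genes of like exon length, here or for complexes III and IV. Nuclear genes with exons of 500 to 2000 bases had a median log2 fold change of 0.20. The median of the list was 0.36, and 0.25 to 0.53 with 1 library left out, while the 5 complex I genes of the mitochondrial genome had a median of -0.20. Ndufa3 had 35.1 and 40.1 CPM untreated and 51.6 and 52.9 CPM with CCCP, or 0.48 in log2 fold change (adjusted p-value 0.229 in edgeR). Ndufs3, a subunit of the peripheral arm, had 43.8 and 51.4 CPM untreated and 61.1 and 69.1 CPM with CCCP. Ndufs1, the largest subunit of the complex, was the exception, at -0.056.

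In 5 of the 9 nuclear genes of complex III both CCCP libraries lay above both untreated ones, beside 24.0% of all genes. All 9 had values above 0. Their median was 0.32, beside -0.047 for CYTB, and leaving out an untreated library gave 0.20 (replicate 1) or 0.54 (replicate 2). Uqcrc1, a core protein of that complex, had 141 and 185 CPM untreated and 218 and 235 CPM with CCCP. Both CCCP libraries lay above both untreated ones in 10 of the 11 nuclear genes of complex IV, beside 24.0% of all genes. All 11 had values above 0. Their median was 0.35, beside 0.091 for COX1, and it was 0.19 without untreated replicate 1, 0.23 without CCCP replicate 2 and 0.49 without untreated replicate 2. Cox6a1 had 61.5 and 73.6 CPM untreated and 92.8 and 91.1 CPM with CCCP. With the length trend of the table removed the medians were 0.19 for complex I, 0.17 for complex III and 0.14 for complex IV. On the mitochondrial side the same fit gave -0.0068 for ND1, -0.25 for ND2, -0.36 for ND4, -0.59 for ND5 and -0.51 for ND6. It gave -0.23 for CYTB and -0.058 for COX1. The difference between the lists and the mitochondrial genes was not tested.

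Nuclear genes whose levels over the 4 libraries ran most like the summed heavy-strand genes were Necap1, Ppp3r1 and Ggta1. The measure was the root mean square difference of centred log2 CPM, which was 0.0036, 0.0050 and 0.0058 among 10774 genes with a mean of at least 10 CPM. As 360 genes lay within 0.05, this flat pattern is common. ND6 ran most like Zfp949 (0.027), Lamp5 (0.048) and Apba1 (0.056), and 2 genes lay within 0.05 of it. The centred log2 CPM of ND6 itself had a root mean square of 0.386, against 0.0294 for the summed heavy-strand genes. The limit of 0.05 is therefore stricter for ND6, and the counts of 360 and 2 genes cannot be compared.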

How the data were processed

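Poly(A) RNA of 4 AGM explant libraries was sequenced from directional libraries, per the labels' protocols. HISAT2, SAMtools, Subread and FastQC are named in the submitters' processing notes. Each deposited table holds unnormalized read counts by gene, made with featureCounts 2.0.3 and the mm10 RefSeq annotation, per the file headers. No strand option was set, each read of a pair was counted singly, and multi-mapping reads and reads touching more than 1 gene were left out, per the file headers. The deposited tables also give the exon length per gene. Groups come from the sample titles, and libraries from the record of each file, since 1 column header spells its label differently.

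Here edgeR 4.0.16 in R 4.3.3 was run on the counts as deposited, over all genes passing filterByExpr (minimum count 10, minimum total 15), with TMM scaling, the group as the sole term, a two-sided quasi-likelihood test and Benjamini-Hochberg adjustment, with a threshold of 0.05. A standard error is the log2 fold change divided by the square root of F. DESeq2 1.42.0 was an alternative. CPM is scaled by TMM (factors 0.966 to 1.04). The chi-square per degree of freedom between replicates was at least 34.9, more than counting error, so no library was taken for a second deposit of another and each was counted once. The scripts were tested on simulated data. The genes, lists and tests were chosen with earlier results of these data known. Named list genes are up to 3 with the smallest p-values in each direction of a list, of which a selection is printed. Alternatives were other scalings, filters and dispersions, the replicate number as a block, removal of a loess trend with exon length, and leaving out each library.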

Additional observations from a re-analysis of the deposited data

How the results depend on the processing

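RLE factors, no scaling factor, scaling from nuclear genes, robust dispersion and removal of the length trend each called 0 of 19837 genes. Their 0 of 7 therefore says nothing about these 7 genes in particular. DESeq2 called 2.99% of all genes and edgeR without the filter 3.43%, and in both the number of the 7 called was 0. With the replicate block it was 1, ND5 (log2 fold change -0.46, edgeR adjusted p 0.0245), where 10.7% of all genes were called, and with the replicate block and the length trend removed it was 3, ND4 (-0.36, 0.0394), ND5 (-0.59, 0.00596) and ND6 (-0.55, 0.0103), where 7.32% were called. Same-numbered libraries deviated together (correlation 0.36 across genes), but the meaning of the numbers is not in the labels. The median of the 7 was -0.25 with the length trend removed and -0.25 with the block as well, and -0.24 to 0.094 with 1 library left out. COX1 changed sign to -0.058 and -0.060, and ND1 to -0.0068 and -0.012, with the length trend removed without and with the block; the cause was not tested. Leaving out 1 library gave -0.0023 to 0.19 for COX1, -0.19 to 0.096 for CYTB, 0.063 to 0.32 for ND1, -0.24 to 0.11 for ND2, -0.39 to -0.011 for ND4 and -0.77 to 0.094 for ND6. Of 91 refits of single genes, 11 changed sign and 4 passed the threshold. The ND6 ratio was 0.14 against ND5 alone and -0.71 to 0.084 with 1 library left out. The replicate block gave -0.31, which in this balanced design must equal the difference without it, so it is no check. With COX1 and ND4 left out, chosen after seeing the data, it was -0.23. What depth or more libraries would change was not tested.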
